A study of Mus musculus with 10 samples.

Results

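Nmrk2 and 9 other genes of NAD salvage and NAD use were followed in the calf (gastrocnemius muscle) of male C57BL/6 mice. The members were Nmrk2, Nmrk1, Nampt, Nmnat1, Nmnat3, Naprt, Nnmt, Nadk, Nnt and Sirt1. They are 10 of the 19938 genes that had at least 1 probe set with a single gene symbol in the platform annotation, and each of the 10 had 1 such probe set. The members were chosen by measured values of these same arrays, since the set was built around Nmrk2, which had the smallest p of all genes between F2 and F1. Values of that comparison are therefore given as a description, without a test.

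The study set voluntary exercise of F0 mice against a sedentary life, followed both lines into sedentary descendants, and measured messenger RNA on Affymetrix whole-transcript arrays. Each of the 10 arrays held RNA pooled from 5 animals, so that no value below belongs to a single mouse. F0 EX were mice given voluntary exercise and F0 SED were sedentary mice, both taken at 28 weeks of age, with 1 pool each. F1 EX and F1 SED were sedentary offspring of F0 EX and F0 SED matings, taken at 8 weeks. F2 EX and F2 SED came from littermate matings of the F1 animals and were also sedentary and 8 weeks old. EX and SED thus name the ancestry of the F1 and F2 pools, and each of these 4 groups had 2 pools. The study's design text counts 10 males of each ancestry, which equals 2 pools of 5. No label says that the 2 pools of a group hold different animals, so the p-values reflect pool-to-pool spread alone, and this may be technical. F0 differed from its descendants in age, in generation and, for F0 EX, in its own exercise, and these cannot be told apart.

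Cells keep NAD by recycling nicotinamide and by taking in its precursors. Nampt makes nicotinamide mononucleotide from nicotinamide, the Nmrk kinases make it from nicotinamide riboside, and the Nmnat enzymes turn it into NAD. Nmrk2 is the muscle form of the riboside kinase and was first described as a muscle integrin-binding protein, while Nmrk1 is found in many tissues. NAD then serves as electron carrier in fibre metabolism, as substrate of sirtuins and as the source of NADP.

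The promoters of both riboside kinases are shown because the set was built around Nmrk2 and Nmrk1 is its paralog. Each line holds 250 bases before the transcript start and 50 from it onward, in the 5′ to 3′ direction of the gene, from RefSeq on build GRCm38.p6. Nmrk2 lies on the minus strand at chr10:81201988-81202287 and Nmrk1 on the plus strand at chr19:18631766-18632065. Capitals mark matches to the E-box CANNTG, the core bound by myogenic and clock factors, and to the TATA box TATAAA.
Nmrk2: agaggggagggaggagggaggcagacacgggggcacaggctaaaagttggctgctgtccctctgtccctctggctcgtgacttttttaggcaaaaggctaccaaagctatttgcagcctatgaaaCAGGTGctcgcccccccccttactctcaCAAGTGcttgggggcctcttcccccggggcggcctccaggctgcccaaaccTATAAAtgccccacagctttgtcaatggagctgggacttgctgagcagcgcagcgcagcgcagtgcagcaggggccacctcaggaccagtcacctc
Nmrk1: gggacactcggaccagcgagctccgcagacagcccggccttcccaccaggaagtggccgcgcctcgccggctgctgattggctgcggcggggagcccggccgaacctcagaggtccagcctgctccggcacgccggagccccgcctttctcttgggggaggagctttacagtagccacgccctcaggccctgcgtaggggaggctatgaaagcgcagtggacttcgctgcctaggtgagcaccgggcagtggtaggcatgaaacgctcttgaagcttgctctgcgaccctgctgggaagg
Both strands were searched and the motifs marked do not overlap each other. The Nmrk2 window held 2 E-boxes, which begin 125 and 97 bases before the start, and 1 TATA box, which begins 46 bases before it. The Nmrk1 window held no match to either motif. Of 32851 promoter windows of the same length, 72.3% held a CANNTG match and 13.6% a TATAAA match. The CArG box and the MEF2 box were in neither window, and were in 1.63% and 3.19% of all windows. Promoter windows were found for 7 of the 10 members, and 2 of these genes matched the E-box CACGTG, which 7.15% of all windows held. Sirt1 had 2 matches and the second of the Nadk windows had 1. Such matches describe letters in the window only.

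A pair of arrays stood apart from the rest. A gene was kept for testing if its mean log2 signal over all arrays reached the 40th percentile of all genes, 3.23, which left 11963 genes and 9 of the 10 members. Across the kept genes, Pearson r with each other array had a median of 0.974 for F0 SED and 0.979 for F1 EX pool 1, against 0.986 to 0.993 for the remaining arrays. Both of these arrays lay below all 8 others in 13.7% of the kept genes, among them Nampt, Nmnat1 and Sirt1, and above all others in 8.76%, among them Nmnat3. Muscle fibre markers, 10 of 10 measured, had a mean log2 signal of 11.5 and 11.8 in these 2 arrays and of 11.8 to 11.9 in the others, so that all pools read as muscle.

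Nmrk2 was highest in F2 muscle. On the log2 signal scale it read 7.63 and 7.77 in the F2 EX pools and 7.81 and 7.90 in the F2 SED pools. The F1 EX pools read 6.16 and 6.59, and the F1 SED pools 7.18 and 6.78. The F0 EX pool read 6.97 and the F0 SED pool 7.03. All 4 F2 pools lay above all 6 others, while both F0 pools lay within the range of F1.

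**Figure D1:**
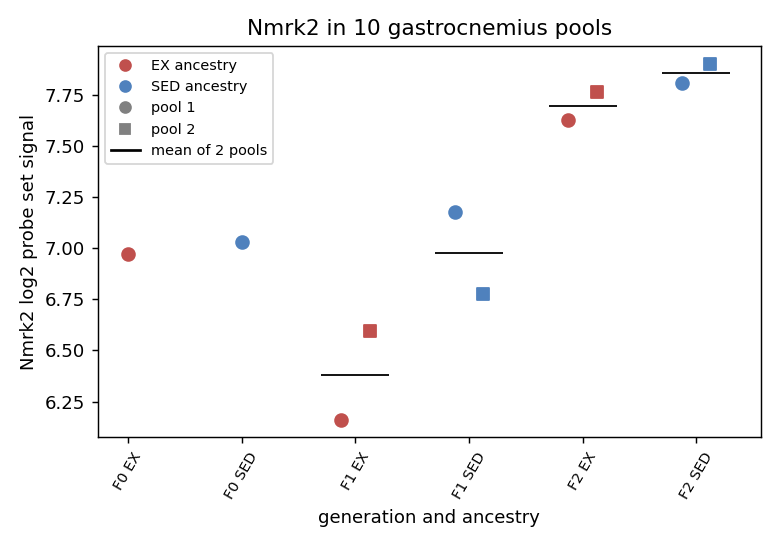
Nmrk2 log2 probe set signal (vertical axis) in each of 10 pools, by generation and ancestry (horizontal axis). Points are pools and bars are means of 2 pools. The 4 F2 pools lie between 7.63 and 7.90, above every F1 and F0 pool.

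Over 4 pools each, Nmrk2 averaged 7.78 ± 0.11 in F2 muscle and 6.68 ± 0.42 in F1 muscle (SD). The means lay 1.10 apart on the log2 scale, or 2.14-fold. F1 pools spread over 1.02 and F2 pools over 0.27. The ranges of F2 and F1 did not overlap. Without F1 EX pool 1, the lowest of all, the difference was 0.97. It stood between 0.97 and 1.22 over all fits that left out 1 descendant pool. Nmrk2 was chosen by this comparison, so the size may be overstated and the range is no check of it. In these bulk samples, more cells with a transcript and more transcript per cell cannot be told apart.

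Among the 9 members kept, Nmrk2 alone had every F2 pool above every F1 pool, and none had every F2 pool below. Over all kept genes the shares were 1.77% higher and 1.11% lower. The rule chose Nmrk2 in this comparison, so its count is a description. Nmnat1, the nuclear adenylyltransferase, averaged 5.88 ± 0.08 in F2 muscle against 5.55 ± 0.34 in F1 muscle (SD, 4 pools each), 0.33 higher. Nnmt, which methylates nicotinamide and so withdraws it from salvage, averaged 4.90 ± 0.10 in F2 and 4.65 ± 0.26 in F1, a difference of 0.25. Sirt1, an NAD-dependent deacetylase, averaged 5.52 ± 0.19 in F2 and 5.33 ± 0.16 in F1, a difference of 0.18. For these 3 genes the pools of both generations overlapped. The other 5 differed by -0.09 (Nmnat3) to 0.04 (Nnt), and Nampt by 0.03. The median over the 9 members was 0.04, beside 0.00467 over all kept genes.

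In 6 of the 9 members the F1 pools spread more widely than the F2 pools. The F1 pools include F1 EX pool 1, an array that stood apart across the kept genes. The share of all kept genes with a wider F1 range is not given here, so the count is not read as particular to the members. The range of Nampt was 0.11 over the F2 pools and 0.49 over the F1 pools, and that of Nmnat1 was 0.20 in F2 and 0.72 in F1. For Nadk, the cytosolic NAD kinase, the ranges were 0.09 in F2 and 0.41 in F1. The order was the other way for Nnt (0.29 in F2 and 0.15 in F1), Naprt (0.24 in F2 and 0.23 in F1) and Sirt1 (0.43 in F2 and 0.38 in F1). In Nampt, Nmnat1 and Nadk, F1 EX pool 1 was the lowest F1 pool.

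Markers of other tissues were read in the same pools, without a test. The F2 and F1 ranges of the mean over each marker list overlapped, which does not hold for every single marker. Hepatocyte markers, 5 of 6 measured, had a mean log2 signal of 4.64 to 6.43 in the F2 pools and 4.14 to 4.96 in the F1 pools, with the highest value in F2 EX pool 1. Alb averaged 8.55 in the F2 pools and 6.75 in the F1 pools, and these pools overlapped. Every F2 pool of Fgb (lowest 3.64) lay above every F1 pool (highest 3.53). The F2 and F1 pools of Apoa1, Ttr and Cps1 overlapped. Adipocyte markers (6 of 6) ran from 5.05 to 5.78 in F2 and from 4.81 to 5.67 in F1. The part of these markers in the Nmrk2 difference was not tested.

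The genes most like Nmrk2 over the 8 descendant pools were taken by Pearson r across pools, as a description. They were Mybph (r = 0.96), a myosin-binding protein, Camk2d (0.95), a calcium/calmodulin-dependent kinase, Arl2bp (0.95), Gdpd1 (0.95) and Tmem42 (0.94). The 8 points include the step between F2 and F1 that chose Nmrk2, and they share the array that stood apart. Mybph read 10.89 and 11.01 in F2 EX, 10.93 and 10.83 in F2 SED, 10.30 and 10.44 in F1 EX and 10.66 and 10.44 in F1 SED. Its F2 pools lay above its F1 pools, by a mean of 0.45. In F0 it read 8.45 in EX and 7.80 in SED, far below both descendant generations, whereas Nmrk2 in F0 lay within F1. Over all 10 pools the r of Mybph with Nmrk2 was 0.35, and that of Camk2d 0.72.

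With each generation's mean removed, the 5 genes most like Nmrk2 were Pold2 (r = 0.99), a subunit of DNA polymerase delta, Card10 (0.98), Msrb3 (0.98), a methionine sulfoxide reductase, Lcor (0.98) and Slc25a5 (0.98), an ADP/ATP carrier of mitochondria. Their means differed between F2 and F1 by 0.06 to 0.17. Nmrk2 ranged over 1.02 in the F1 pools and 0.27 in the F2 pools, so r with generation means removed rests mostly on F1. The F1 pools include F1 EX pool 1, the array that stood apart, and the r of all kept genes are not given here. Among the members, the r with the generation means removed was 0.87 for Nadk, 0.80 for Nnmt, 0.76 for Nampt, 0.76 for Nmnat1, 0.47 for Naprt, 0.28 for Sirt1, -0.16 for Nnt and -0.53 for Nmnat3. With the step between generations left in, it was 0.82 for Nnmt, 0.82 for Nmnat1, 0.57 for Sirt1, 0.41 for Nampt and 0.37 for Nadk.

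**Figure D2:**
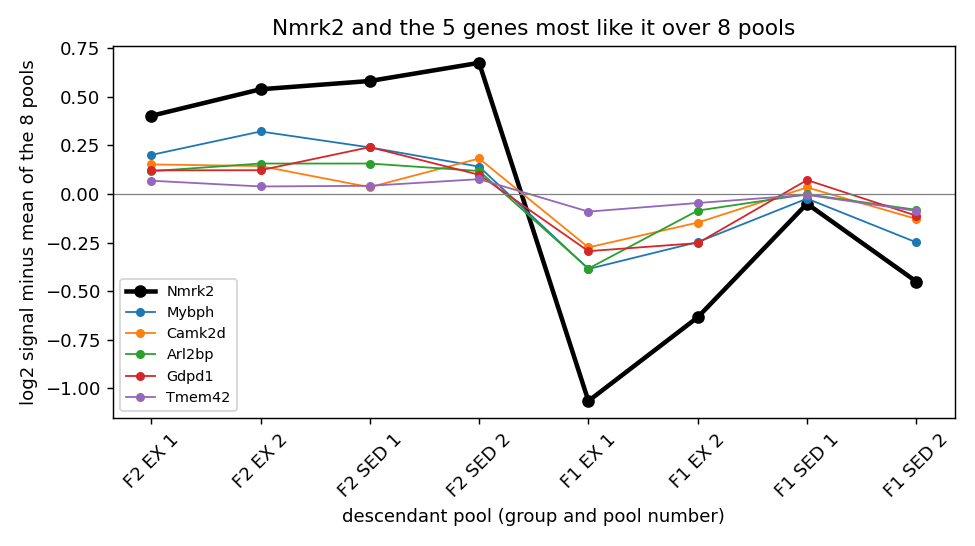
Log2 signal of Nmrk2 and of the 5 genes most like it, each minus its mean over the 8 descendant pools (vertical axis), by pool (horizontal axis). Lines only join the pools of a gene. Nmrk2 spans a wider range than the other 5, and all 6 genes have their lowest value in F1 EX pool 1.

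The question of exercised ancestry was tested first in F1, the sons. Most members had lower means in F1 EX than in F1 SED, and none passed. Nmrk2 read 6.16 and 6.59 in F1 EX against 7.18 and 6.78 in F1 SED, an estimate of -0.60 (SE 0.180, 95% interval -1.003 to -0.20). Its limma p, adjusted over 11963 genes by the Benjamini-Hochberg method, was 0.804, where a gene passed under 0.05 and 0% of kept genes did. Both EX pools lay below both SED pools. Nnmt read 4.29 and 4.69 in F1 EX against 4.91 and 4.71 in F1 SED (estimate -0.32, SE 0.151, limma adjusted p = 0.804). Sirt1 read 5.10 and 5.37 in F1 EX against 5.38 and 5.48 in F1 SED, an estimate of -0.20. Nampt, the rate-limiting salvage enzyme, read 7.99 and 8.45 in F1 EX against 8.48 and 8.45 in F1 SED, an estimate of -0.24. The second EX pool of each of these genes lay closer to the SED pools than the first.

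Among the other members, Nmnat1 read 5.15 and 5.77 in F1 EX against 5.88 and 5.39 in F1 SED, an estimate of -0.17. Nadk read 6.57 and 6.80 in F1 EX against 6.99 and 6.80 in F1 SED, an estimate of -0.20. Naprt, which starts NAD synthesis from nicotinic acid, read 4.34 and 4.25 in F1 EX against 4.47 and 4.34 in F1 SED, an estimate of -0.12. The EX and SED pools overlapped for Nmnat1, and those of Naprt lay side by side. Nmnat3 read 5.38 and 4.91 in F1 EX against 5.11 and 5.04 in F1 SED, so that its EX pools lay on either side of the SED pools.

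In all, 8 of the 9 estimates were below 0 in F1, with a median of -0.20, and Nmnat3 stood at 0.07. Over all kept genes 48.9% were above 0, with a median of -0.00439. Nnt, at -0.01, stood at 0.01 with centred arrays and at 0.02 with quantile normalization. Among the 9 kept members, both EX pools lay below both SED pools for 5 (Nmrk2, Nampt, Naprt, Nnmt and Sirt1), beside 16.6% of kept genes. They lay above both SED pools for 0, beside 13.0%. The gap between the nearest pools was 0.18 for Nmrk2, 0.0243 for Nnmt, 0.00986 for Sirt1, 0.00449 for Naprt and 0.00086 for Nampt, while the medians of whole arrays ran from 3.22 to 3.36. F1 EX pool 1 was the lowest of the 4 pools in 6 of the 9. Without it the members' median was -0.09, beside -0.03 over all kept genes, and none passed. The estimate was then -0.38 for Nmrk2, -0.12 for Nnmt, -0.09 for Nadk, -0.06 for Sirt1, -0.01 for Nampt and 0.13 for Nmnat1. The median was -0.11 without F1 SED pool 1 and -0.33 without F1 EX pool 2. Without F1 EX pool 2 the group rests on pool 1 alone, which is then assumed to vary like the other groups, and 8.74% of kept genes passed. Nmrk2 then had -0.81 (limma adjusted p = 0.0321) and Nnmt -0.51 (0.0480). Adipocyte markers had a mean log2 signal of 4.81 and 4.92 in F1 EX against 5.67 and 5.42 in F1 SED, and their part in the Nmrk2 and Nnmt differences was not tested.

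Nmrk1 was below the signal filter of 3.23 on average and was tested only in a fit without it. It read 3.72 and 3.30 in F1 EX against 3.03 and 2.86 in F1 SED, so that both EX pools were higher. The estimate was 0.57 (SE 0.155), with a limma adjusted p of 0.767 over 19938 genes, of which 0% passed. In the other pools Nmrk1 ran from 2.96 to 3.28.

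In F2, the grandsons, Nmrk2 had the same sign as in F1, and Sirt1 and Nnmt the opposite one. Nmrk2 read 7.63 and 7.77 in F2 EX against 7.81 and 7.90 in F2 SED, an estimate of -0.16 (95% interval -0.56 to 0.25). Sirt1 read 5.77 and 5.54 in F2 EX against 5.41 and 5.35 in F2 SED, an estimate of 0.28. Without F2 EX pool 1 the estimates were 0.16 for Sirt1 and -0.09 for Nmrk2. Nnmt read 4.99 and 4.98 in F2 EX against 4.80 and 4.83 in F2 SED, an estimate of 0.17. For Sirt1 and Nnmt the EX pools were the higher ones in F2 and the lower ones in F1. Nnt, the transhydrogenase of the mitochondrial inner membrane that makes NADPH, read 6.89 and 6.80 in F2 EX against 6.80 and 6.60 in F2 SED, an estimate of 0.15.

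No member passed in F2, where 0% of kept genes did, and the limma adjusted p was 1.00 for each. Both EX pools lay above both SED pools for 5 of the 9 kept members (Nmnat3, Nnmt, Nadk, Nnt and Sirt1), beside 25.8% of kept genes. Their gaps ran from 0.00095 for Nnt to 0.15 for Nnmt. The EX pools lay below for Nmrk2 alone, beside 14.6%, with a gap of 0.0425. Nmrk1, below the filter, had its EX pools higher by a gap of 0.0116. The median estimate was 0.07 over the members and 0.04 over all kept genes.

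Whether ancestry differed more in one generation was tested with the F2 difference minus the F1 difference. It was 0.49 for Nnmt (SE 0.214), 0.47 for Sirt1 (SE 0.201) and 0.44 for Nmrk2 (SE 0.254), each with a limma adjusted p of 0.919. At an unadjusted p under 0.05 stood 2 members, Nnmt and Sirt1, and 519 of all kept genes, or 4.34%. All 9 estimates of the kept members were above 0, with a median of 0.23. Over all kept genes 56.2% were above 0, with a median of 0.04. Nmnat3 and Naprt stood at -0.03 and -0.01 with centred arrays. Nmrk1, below the filter, had -0.48 (SE 0.220) in the fit without a filter (limma adjusted p = 0.866). Without F1 EX pool 1 the values were 0.29 for Nnmt, 0.34 for Sirt1 and 0.23 for Nmrk2. No member passed, and 0% of kept genes did.

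The 4 EX and 4 SED pools of both generations were then compared in a model with a term for generation. Nmrk2 averaged 7.04 ± 0.78 in EX and 7.42 ± 0.53 in SED (SD, n = 4 each), a spread that includes the step between generations. The estimate was -0.38 (SE 0.139, 95% interval -0.69 to -0.07), lower in EX within each generation, with a limma adjusted p of 0.888. It was -0.25 without F1 EX pool 1. Nampt averaged 8.29 ± 0.21 in EX and 8.42 ± 0.06 in SED (estimate -0.13, 95% interval -0.38 to 0.12). Among the other kept members the estimates ran from -0.09 for Nmnat1 to 0.09 for Nmnat3. Nmrk1, below the filter, had 0.33 in the fit without a filter (95% interval 0.05 to 0.61, limma adjusted p = 0.898). No member passed, and 0% of kept genes did. Among the 9 kept members, EX and SED pools overlapped in all. Of kept genes, 1.75% had every EX pool higher and 1.28% every EX pool lower. Below the filter, all 4 EX pools of Nmrk1 (lowest 3.08) lay above all 4 SED pools (highest 3.07).

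**Figure D3:**
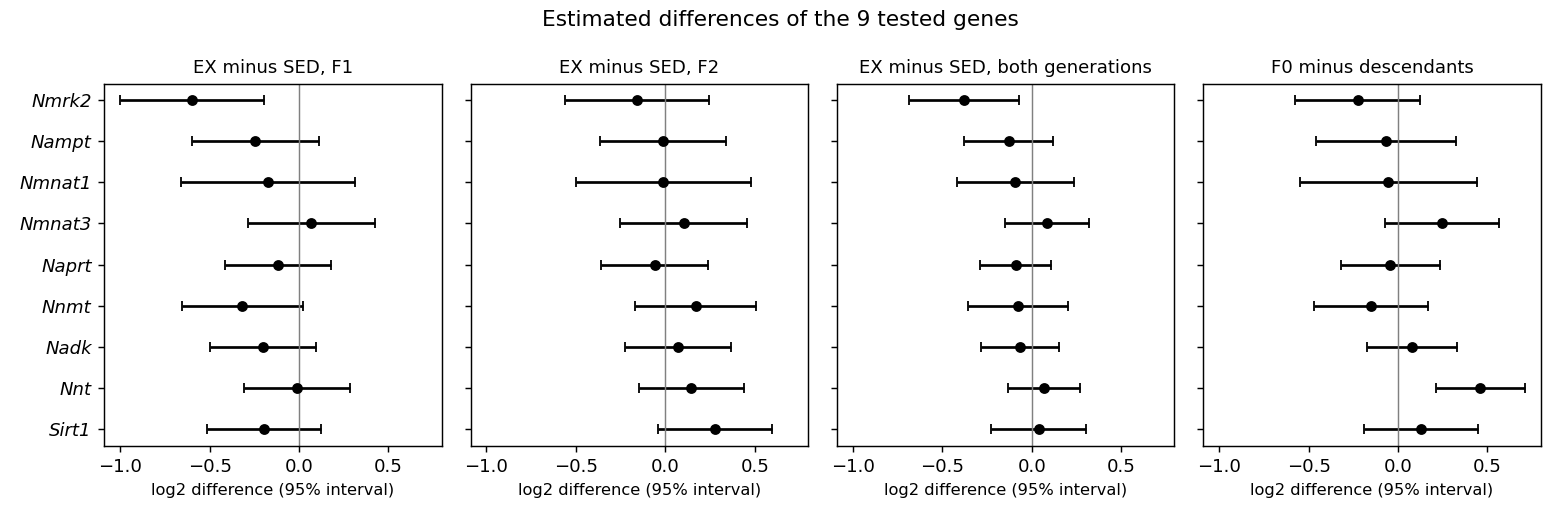
Estimated log2 differences (horizontal axis) with 95% intervals for the 9 members at or above the signal filter, in 4 comparisons fitted with limma. Nmrk2 has intervals below 0 in F1 and over both generations, and Nnt has an interval above 0 for F0 against descendants, while none passed after adjustment over 11963 genes.

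F0 muscle at 28 weeks was then set against the 8 descendant pools at 8 weeks. Nnt was the member with the largest difference. The F0 EX pool read 7.39 and the F0 SED pool 7.04, against 6.60 to 6.89 in the descendants, with a median of 6.80. Both F0 pools lay above all descendant pools, as in 5.79% of kept genes, and no other member was separated, with 6.65% of kept genes separated downward. The estimate was 0.46 (SE 0.115, 95% interval 0.21 to 0.71), with a limma adjusted p of 0.0628, so that Nnt did not pass in a comparison where 2.33% of kept genes did. It passed with each array centred on its median (0.46, limma adjusted p = 0.0406), with quantile normalization (0.49, 0.0251), with a stricter filter (0.46, 0.0457) and without F1 EX pool 1 (0.46, 0.0437). In those 4 fits 2.52%, 2.53%, 3.46% and 4.88% of kept genes passed. Over the other alternatives its limma adjusted p ran from 0.0509 to 0.492. Fibroblast markers (6 of 6) had a mean log2 signal of 8.31 and 8.08 in the F0 pools against 8.80 to 9.12 in descendants, and endothelial markers (6 of 6) 6.63 and 6.24 in F0 against 6.84 to 7.04. The part of these cells in the Nnt difference was not tested. In the C57BL/6J substrain Nnt carries a deletion of several coding exons, and the labels do not name the substrain used here.

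Nmrk2 did not pass between F0 and descendants, with an estimate of -0.23 (95% interval -0.58 to 0.12, limma adjusted p = 0.510). The descendants include the F2 pools by which Nmrk2 was chosen, so this test is not independent of that choice. The F0 EX and SED pools of Nmrk2 (6.97 and 7.03) lay above its F1 mean of 6.68 and below its F2 mean of 7.78. The negative sign therefore rests on the F2 pools. Nmnat3, an adenylyltransferase described in mitochondria, read 5.08 and 5.54 in the EX and SED pools of F0, against a descendant range of 4.91 to 5.38 (estimate 0.25, limma adjusted p = 0.413). Its estimate was -0.03 without F0 SED. Nnmt read 4.45 and 4.80 in F0 against 4.29 to 4.99 in descendants, an estimate of -0.15. The remaining 5 estimates ran from -0.07 to 0.13. For Nampt and Nmnat1 they hid large gaps within F0.

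Exercised and sedentary F0 muscle had 1 pool each, so their differences have no replicate check and no test. Nampt read 8.66 in F0 EX and 7.92 in F0 SED, a difference of 0.75. Nmnat1 read 6.15 in F0 EX and 5.16 in F0 SED, a difference of 0.99. These 2 of 9 members exceeded their sedentary value by 0.5 or more, as did 15.3% of kept genes, and 0 fell short of it by as much, beside 5.38%. F0 EX held the highest Nampt and Nmnat1 of all 10 pools. F0 SED and F1 EX pool 1, the arrays that stood apart, held the 2 lowest values of both genes. Sirt1 differed by 0.44, Naprt by 0.41, Nnt by 0.35, Nmnat3 by -0.46 and Nnmt by -0.35. Nmrk2 differed by -0.06. Keratinocyte markers (6 of 6 measured, 3 above the filter) had a mean log2 signal of 3.88 in the exercised pool and 4.73 in the sedentary one, against 2.95 to 3.42 in descendants, and their part in these values was not tested.

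**Figure D4:**
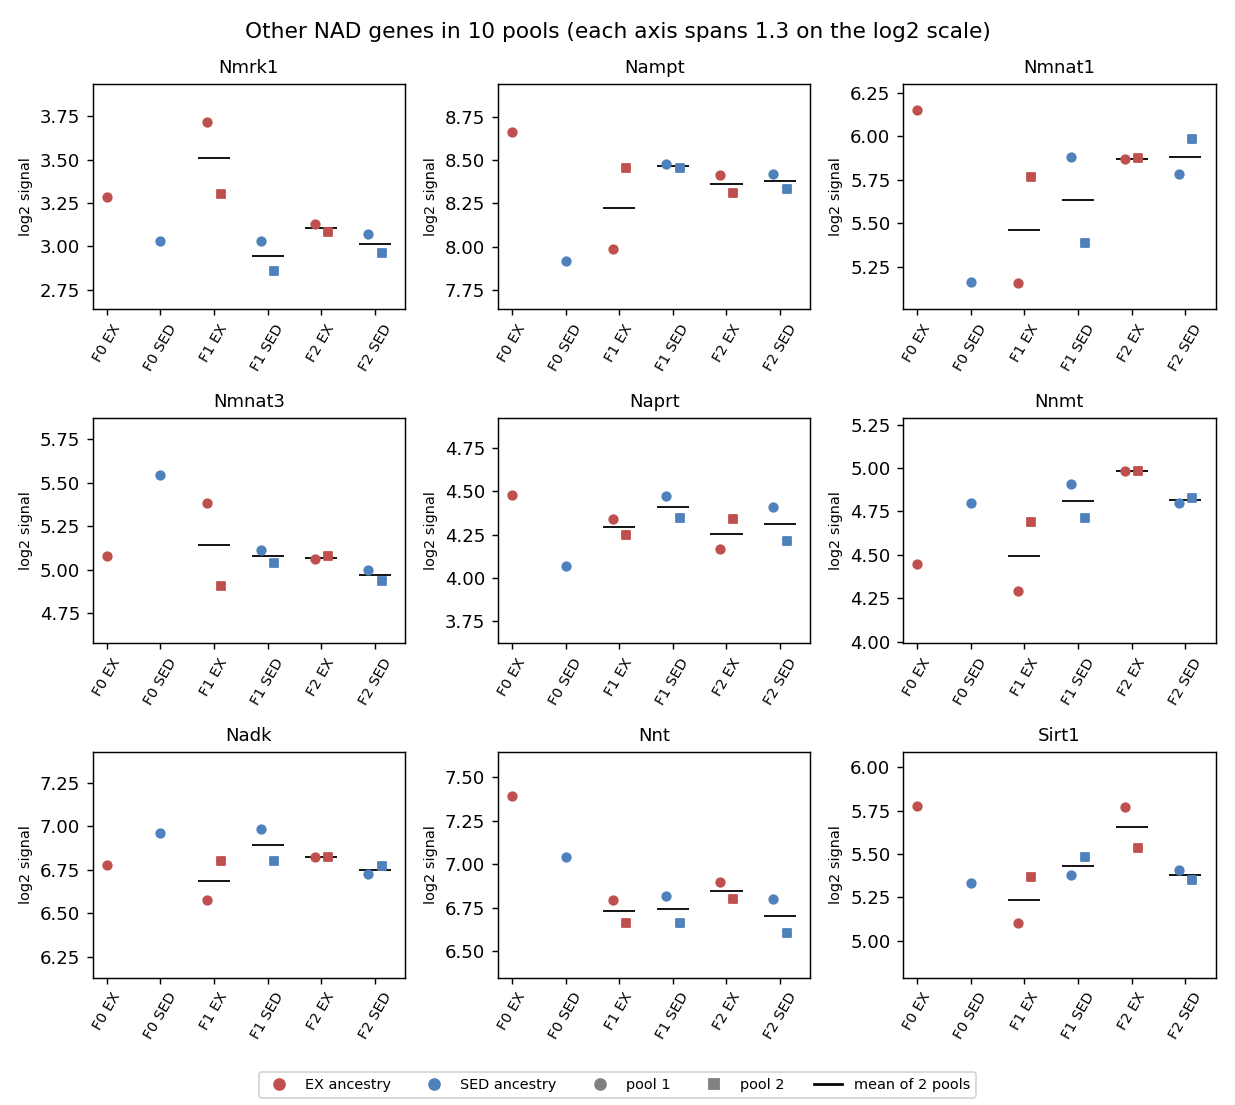
Log2 probe set signals (vertical axes, each spanning 1.3) of the other 9 genes in 10 pools, by generation and ancestry (horizontal axes). Points are pools and bars are means of 2 pools. Nampt and Nmnat1 are lowest in F0 SED and F1 EX pool 1, and both F0 pools of Nnt lie above all descendant pools.

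The other genes of NAD metabolism, in 5 lists, gave no call in any tested comparison. In F0 against descendants, 0 of 4 tested genes of synthesis from tryptophan passed, with a median estimate of 0.05. Qprt, which makes the first mononucleotide of that route, had -0.33 (limma adjusted p = 0.118). Of 9 tested genes for other kinases, nucleotidases and carriers 0 passed, with a median of -0.07, and Slc25a51, the NAD carrier of mitochondria, had -0.37. Of 13 tested NAD-consuming enzymes 0 passed, with a median of 0.02, and the deacylase Sirt5 had 0.30. For Slc25a51 and Sirt5 the F0 EX pool, at 7.09 and 5.16, lay within the descendant range. Only F0 SED, an array that stood apart, lay outside it (6.44 and 5.74). Both F0 pools of Qprt (highest 3.47) lay below all descendant pools (lowest 3.59). All kept genes had a median of -0.02.

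Of 8 tested NADPH sources besides Nnt, 0 passed in F0 against descendants, with a median of 0.18 and 3 genes (37.5%) at an unadjusted p under 0.05, beside 17.6% of all kept genes. Mthfd1, a folate enzyme, had 0.36 (limma adjusted p = 0.123), malic enzyme Me1 0.31 (0.134), isocitrate dehydrogenase Idh1 -0.43 (0.285) and Aldh1l2 -0.27 (0.251). Both F0 pools of Mthfd1 and Me1 lay above all descendant pools. For Idh1 and Aldh1l2 the F0 EX pool (7.36 and 4.59) lay within the descendant range, and only F0 SED (6.61 and 4.29) lay below it. Among 8 binding partners and reported regulators of Nmrk2, 0 passed. Itgb1, the integrin subunit that binds Nmrk2, had -0.35 (limma adjusted p = 0.532), and the transcription factor Srf had 0.27 (0.284). Itgb1 read 9.06 in F0 EX and 8.15 in F0 SED, and both F0 pools of Itgb1 and of Srf lay within the descendant range. In ancestry over both generations the medians of the 5 lists ran from -0.01 to 0.05, and 0 genes of these lists passed.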

How the data were processed

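Values were the log2 probe set signals deposited by the authors for 10 arrays, made with Affymetrix Expression Console per the submitters' processing notes. Its version, its normalization and the genome build are not stated in the labels or headers, and the log2 scale was read from the values (0.966 to 14.2). Array medians ran from 3.22 to 3.36, the number of arrays limits the precision, and 0 columns were left unmapped. Of 35557 probe sets, 21789 had 1 gene symbol, 1621 several and 12147 none. Entrez identifiers of 21698 matched RefSeq (GRCm38.p6), and 0 symbols changed.

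Each gene took its single-symbol probe set of highest mean. Genes were fitted with limma 3.58.1 in R 4.3.3 (lmFit, eBayes), with Benjamini-Hochberg adjustment over 11963 genes and a threshold of 0.05. The same code was also run on simulated data. The simulated noise was independent between arrays, so no simulated array stood apart as in these data. The 8 descendant pools gave the ancestry fits, with generation in the model or as 4 groups, and all 10 pools gave F0 against descendants. F0 EX and F0 SED, with 1 pool each, were compared without a test.

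All 10 members were named. From each other list of NAD genes, any gene past the threshold was to be named, filled to 4 with the largest differences of F0 against descendants. The members and lists were chosen with earlier results of these data known. Alternatives changed the scaling, filter, variance settings, array weights, probe set rule and pools. Pools with the same number did not deviate together (r from -0.11 to 0.06 over 6 pairs of groups), so the number was used as a block only as an alternative.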

Additional observations from a re-analysis of the deposited data

Results flagged for a closer look

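Dixon's criterion was applied to 50 sets of 4 or 8 pools, which overlap, and chance alone marks about 1 in 20 such sets. It marked 6 sets, and in each the pool that stood apart was F1 EX pool 1. Nampt read 7.99 there, with a gap of 0.947 of the range over the F1 pools and of 0.661 over the 8 descendant pools. Nmnat1 read 5.15 and Nadk 6.57, with gaps of 0.85 and 0.922 of the range over the 4 EX descendant pools. Nnmt read 4.29 and Nmnat3 5.38, with gaps of 0.569 and 0.566 over the descendant pools. Nmnat3 was high in that pool and the other 4 genes were low.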

How the results depend on the processing

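Of 764 alternative estimates for 45 member differences, 705 kept their direction and call, 53 changed sign and 6 passed the threshold newly. Part of this agreement was fixed beforehand. Another filter, the variance settings, the replicate block and the probe set rule could not move a member's estimate. Leaving out a pool of one generation could not move the ancestry difference of the other. No member had passed in the main fits, so a call could change only by a new pass. The estimates that changed sign had main sizes up to 0.25, none had passed, and the cause was not tested. Leaving out both arrays that stood apart was chosen after seeing the data. No F0 pool entered those ancestry fits, so for ancestry it is the same fit as without F1 EX pool 1 alone. For ancestry over both generations, this fit gave 0.0469 for Nmnat1, 0.053 for Nnmt, 0.0082 for Nadk and -0.0069 for Nmnat3. Array weights gave 0.0388 for Nmnat1, 0.0469 for Nnmt and 0.0103 for Nadk, and adding the F0 pair gave 0.0462 for Nampt, 0.13 for Nmnat1, 0.0108 for Naprt and -0.0249 for Nmnat3. In F1, Nmnat1 stood at 0.13 and Nmnat3 at -0.17 without both arrays, and Nnt at 0.0063 with centred arrays and 0.019 with quantile normalization. For the difference between generations, Nmnat1 stood at -0.14 without both arrays, and Nmnat3 at -0.033 and Naprt at -0.0112 with centred arrays. For F0 against descendants, 38 genes passed with array weights and 170 without both arrays, where 279 did otherwise. Of the members, 1 (Nnt) passed with centred arrays, quantile normalization or the 60th percentile filter. Nampt stood at 0.26, Nmnat1 at 0.35, Naprt at 0.22 and Nadk at -0.0539 without both arrays.

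Leaving out 1 pool at a time gave these ranges. Over both generations they were -0.20 to 0.0469 for Nmnat1, -0.0069 to 0.18 for Nmnat3, -0.13 to 0.053 for Nnmt, -0.10 to 0.0082 for Nadk and -0.0543 to 0.14 for Sirt1. In F1, 0 to 1046 genes and 0 to 2 members passed, the most without F1 EX pool 2, and the ranges were -0.48 to 0.13 for Nmnat1, -0.17 to 0.31 for Nmnat3 and -0.0857 to 0.0667 for Nnt. In F2 they were -0.0644 to 0.0378 for Nampt, -0.11 to 0.0909 for Nmnat1 and -0.16 to 0.0351 for Naprt. For the difference between generations, 0 to 143 genes passed, the most without F1 EX pool 2, with -0.14 to 0.47 for Nmnat1, -0.20 to 0.27 for Nmnat3 and -0.0399 to 0.15 for Naprt. For F0 against descendants, 86 genes passed without F0 SED and 1231 without F0 EX, and 0 to 1 members did. The ranges were -0.51 to 0.37 for Nampt, -0.60 to 0.49 for Nmnat1, -0.0277 to 0.52 for Nmnat3, -0.29 to 0.20 for Naprt and -0.0721 to 0.33 for Sirt1.

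With the pool number as a replicate block, the limma adjusted p of Nmrk2 in F1 was 0.821, and no call changed. Each descendant group held 1 pool of each number, so the block could not move any estimate. The F0 pools carry no number, so F0 against descendants had no block.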
